A study of Mus musculus with 8 samples.

Results

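Retnla, Chil3, Arg1, Mrc1, Mgl2, Clec10a, Pdcd1lg2, Egr2, Tgm2 and Cd200r1 are 10 mouse genes linked to alternative activation of macrophages. They were followed on 8 arrays of injured, regenerating tibialis anterior muscle, out of 19752 genes with a usable probe set. The list was drawn up around Retnla and was chosen on the difference between rIL-33 and PBS arrays and the values of each array, so the treatment differences of these genes are given below as a description. All 10 genes had a value, each from a single probe set. Of these, 8 were bright enough for the test across genes, and Chil3 and Pdcd1lg2 were dim, with a mean under the cut-off of 6.65 on the log2 scale.

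The tissue was whole muscle of aged male mice, 99 weeks old by the sample labels and 22 months old by the series' design text. All muscles had been cryoinjured with a metal probe chilled in liquid nitrogen and held on the muscle for 8 s, and were taken on day 8. In the rIL-33 group (4 arrays) the mice had received 2 µg of recombinant interleukin 33 into the peritoneal cavity both the day before injury and the day after it, and the PBS group (4 arrays) is labelled PBS, with no dose or route stated. The genetic background is labelled WT for replicates 3 and 4 of both groups and C57BL/6 for replicates 1 and 2; the design text calls all the mice C57BL/6, and how the labels differ is not said. Nothing states that the arrays represent separate mice, so errors and p-values reflect only how these samples scattered, which may be technical. Median intensity lay between 222.6 and 232.2 on the 8 arrays. All 12 skeletal muscle marker genes of the list used here were bright, with a mean log2 level of 13.12 to 13.36 on the rIL-33 arrays and 13.03 to 13.24 on the PBS arrays.

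Macrophages take on an alternatively activated state when interleukin 4 or interleukin 13 binds receptors containing the interleukin 4 receptor alpha chain and activates the transcription factor STAT6. In mice this state is recognised by secreted proteins (RELMα, Ym1), the enzyme arginase 1, lectin receptors that take up glycoproteins, and molecules that restrain T cells and myeloid cells. Interleukin 33 is an alarmin cytokine that makes group 2 innate lymphoid cells and other cells release interleukin 13 and interleukin 5. In regenerating muscle, macrophages first clear debris and later accompany the growth of new fibres. The arrays measured RNA of the whole muscle, so fewer cells of a type and less RNA per cell cannot be told apart.

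A promoter window was found for 6 of the 10 genes, and 4 are shown: Retnla, which had by far the largest difference between the groups, Mgl2, which had the next largest, and Chil3 and Pdcd1lg2, which were dim and hold a STAT-type motif. The windows are RefSeq sequences of GRCm38.p6, 250 bases before to 50 bases after the annotated start, written 5′ to 3′ on the gene's strand. Capitals mark matches on either strand to the motifs searched, which were TTCNNNNGAA (the spacing bound by STAT6), TTCNNNGAA (the spacing of other STAT proteins), TTGCNNAA (a C/EBP-type motif) and TATAAA (the TATA box). Retnla lies at chr16:48842359-48842658 on the plus strand, Chil3 at chr3:106167515-106167814 on the minus strand, Mgl2 at chr11:70130107-70130406 on the plus strand and Pdcd1lg2 at chr19:29410669-29410968 on the plus strand.
Retnla: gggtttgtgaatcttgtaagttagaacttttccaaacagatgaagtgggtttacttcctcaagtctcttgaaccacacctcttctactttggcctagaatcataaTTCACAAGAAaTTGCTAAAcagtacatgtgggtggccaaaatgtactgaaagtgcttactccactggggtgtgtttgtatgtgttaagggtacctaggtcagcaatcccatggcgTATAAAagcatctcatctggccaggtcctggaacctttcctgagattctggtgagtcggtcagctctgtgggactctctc
Chil3: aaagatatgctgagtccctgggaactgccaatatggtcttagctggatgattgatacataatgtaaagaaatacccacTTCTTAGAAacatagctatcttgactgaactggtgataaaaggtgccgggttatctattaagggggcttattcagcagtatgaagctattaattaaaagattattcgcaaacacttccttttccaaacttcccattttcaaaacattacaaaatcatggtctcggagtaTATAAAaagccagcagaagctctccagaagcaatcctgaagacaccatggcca
Mgl2: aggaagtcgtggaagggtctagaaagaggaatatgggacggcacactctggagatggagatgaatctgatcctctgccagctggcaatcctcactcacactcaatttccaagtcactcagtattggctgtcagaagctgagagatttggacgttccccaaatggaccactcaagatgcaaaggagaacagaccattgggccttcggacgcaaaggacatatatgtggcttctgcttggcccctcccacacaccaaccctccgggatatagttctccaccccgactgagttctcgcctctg
Pdcd1lg2: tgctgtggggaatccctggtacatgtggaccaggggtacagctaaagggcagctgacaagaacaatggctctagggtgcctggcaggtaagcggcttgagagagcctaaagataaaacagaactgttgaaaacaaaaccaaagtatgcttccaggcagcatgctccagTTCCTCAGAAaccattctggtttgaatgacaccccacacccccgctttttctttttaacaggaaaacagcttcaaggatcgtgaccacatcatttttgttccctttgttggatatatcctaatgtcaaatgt

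In the Retnla window, TTCACAAGAA stood from -145 to -136 relative to the start, 1 base before TTGCTAAA at -134 to -127, and the TATA box at -30 to -25. Pdcd1lg2 held TTCCTCAGAA from -82 to -73. Chil3 had the shorter STAT spacing, TTCTTAGAA from -172 to -164, and TATAAA across its annotated start. The Mgl2 window held none of these letters. Among 32817 distinct promoter windows of the same length, 6.94% held TTCNNNNGAA, 8.29% TTCNNNGAA, 10.81% TTGCNNAA and 13.62% TATAAA. The motifs do not overlap one another in these windows. The windows of Mrc1 and Egr2, not shown, held none either. A match describes letters only, and no match says only that these letters are not in the window.

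Retnla was far higher in the rIL-33 muscles. It encodes RELMα (FIZZ1), a small cysteine-rich protein secreted by alternatively activated macrophages and, in mice, also by adipose tissue, eosinophils and some epithelia. Its intensity (probe set 10436095) was 2097, 1068, 1707 and 1640 on rIL-33 replicates 1 to 4, against 219.5, 377.0, 187.8 and 201.2 on PBS replicates 1 to 4. On the log2 scale these were 11.03, 10.06, 10.74 and 10.68 with rIL-33 and 7.78, 8.56, 7.55 and 7.65 with PBS. No rIL-33 array came near the PBS arrays, and the closest pair, rIL-33 replicate 2 and PBS replicate 2, still differed 2.83-fold. The widest pair, rIL-33 replicate 1 and PBS replicate 3, differed 11.2-fold. The log2 difference was 2.74 (SE 0.24, n = 4 per group), a 6.69-fold ratio of geometric means with a 95% interval of 4.61 to 9.71.

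**Figure D1:**
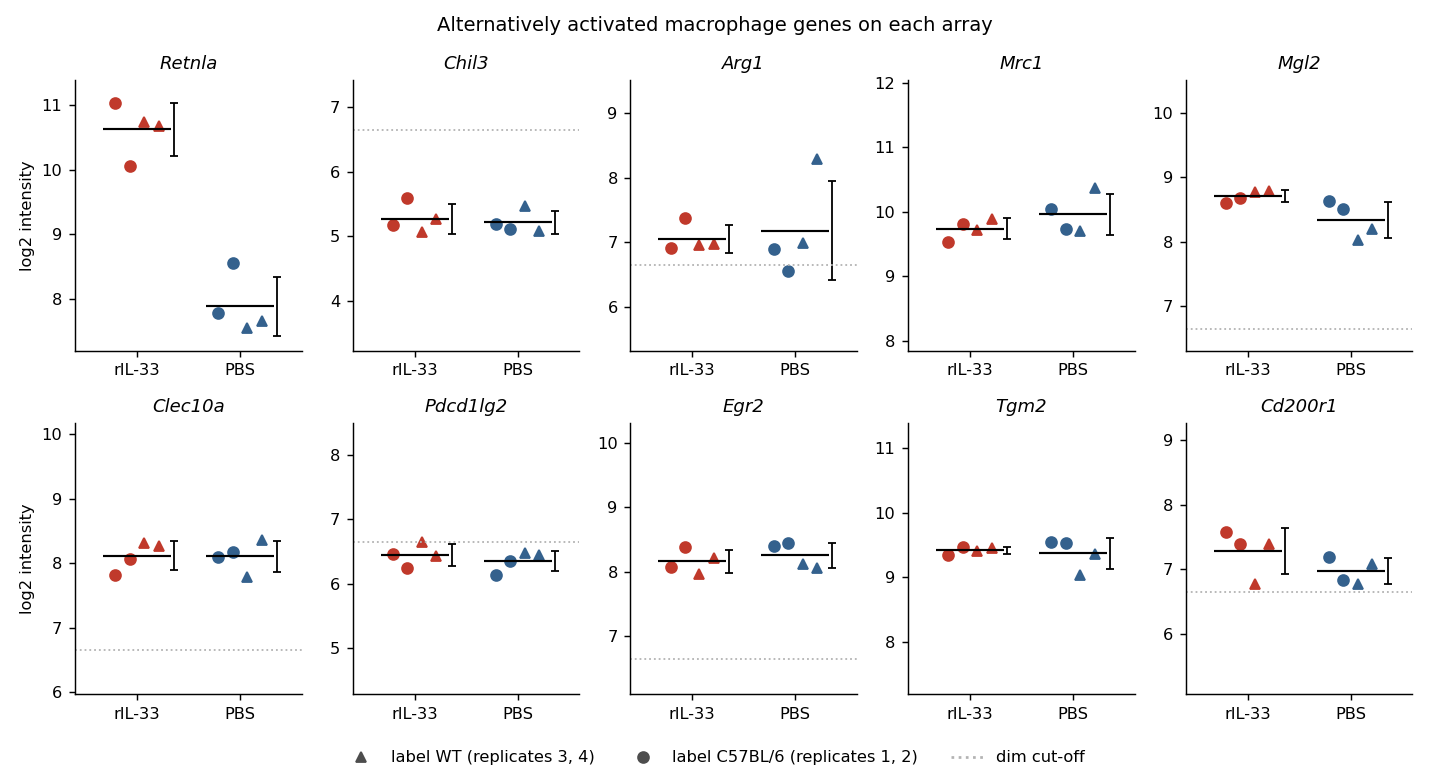
Log2 intensity of each gene on every array, with rIL-33 arrays at the left and PBS arrays at the right of each panel; triangles are WT-labelled and circles C57BL/6-labelled arrays, lines are group means, bars ± SD (n = 4 per group), and the dotted line is the dim cut-off of 6.65. All panels span the same number of log2 units, so that the gap between the Retnla groups can be set against the overlap of the groups in the other panels.

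Retnla's difference was the largest of the 14814 genes tested in the rIL-33 minus PBS contrast, and Retnla was the 1 gene past the adjusted threshold in limma. It did not pass on the 4 C57BL/6-labelled arrays alone, where its difference was 2.38. Among the tested members this was 1 of 8, against 0.00675% of all genes, and nothing is read from that count because the list was built on the same contrast. Its replicates also scattered more than those of most genes, with a pooled SD within groups of 0.43, against a median of 0.14 over the tested genes. The lowest rIL-33 array exceeded the highest PBS array in 361 genes, 2.44% of those tested, and Retnla was the 1 member among them. The highest rIL-33 array was under the lowest PBS array in 2.13% of the genes and in 0 members.

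Chil3 was dim in both groups. It encodes Ym1, a chitinase-like lectin secreted in quantity by alternatively activated macrophages and also made by immature neutrophils and monocytes in mice. The log2 values (probe set 10501020) were 5.17, 5.59, 5.06 and 5.26 with rIL-33, against 5.19, 5.12, 5.47 and 5.08 with PBS. All 8 lay under the cut-off of 6.65, and the groups overlapped. The difference was 0.05 (SE 0.13, 95% interval -0.22 to 0.33), so a rise of Retnla's size in Chil3 signal lay outside the interval, although compression of dim signals limits what that interval says of the RNA.

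Arg1 did not separate the groups. Arginase 1 splits arginine into ornithine and urea and competes with nitric oxide synthase for its substrate. Its log2 values (probe set 10368343) were 6.91, 7.38, 6.96 and 6.96 with rIL-33, against 6.90, 6.55, 6.99 and 8.29 with PBS. The highest array was a PBS one, replicate 4, and Arg1 scattered more than 99.7% of the tested genes. The difference was -0.13 (SE 0.31) and it was 0.24 without PBS replicate 4. On that same array the neutrophil list, described below, stood at its highest mean level, 8.99. The macrophage (10.19), inflammatory myeloid (8.64), monocyte (8.98) and T cell (7.94) lists were also highest there. On PBS replicate 3 the neutrophil list was next highest, at 8.09, with Arg1 at 6.99. The part of any of these cells in the Arg1 value was not tested.

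Mrc1 encodes the mannose receptor CD206, an endocytic receptor of tissue macrophages. Its log2 values (probe set 10469358) were 9.53, 9.82, 9.72 and 9.89 with rIL-33, against 10.04, 9.73, 9.70 and 10.37 with PBS. The ranges overlapped, with PBS replicates 1 and 4 above every rIL-33 array. The difference was -0.22 (SE 0.15), or -0.08 without PBS replicate 4.

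Mgl2 and Clec10a are neighbouring genes on chromosome 11 that encode the galactose-binding lectins CD301b and CD301a, found on macrophages and on a subset of dendritic cells. Mgl2 (probe set 10377774) was at 8.60, 8.68, 8.78 and 8.79 with rIL-33, against 8.63, 8.50, 8.03 and 8.19 with PBS. Only rIL-33 replicate 1 reached down into the PBS range, where PBS replicate 1 lay slightly above it. The Mgl2 difference was 0.37 (SE 0.13, 95% interval 0.09 to 0.65), a 1.29-fold ratio, larger than in 99.0% of the tested genes. It did not pass the adjusted threshold.

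Clec10a (probe set 10377782) was at 7.82, 8.06, 8.32 and 8.27 with rIL-33, against 8.10, 8.17, 7.79 and 8.36 with PBS. The groups covered almost the same range, and the difference was 0.01 (SE 0.14, 95% interval -0.30 to 0.32). Whether the treatment difference itself differed between these neighbouring genes was not tested.

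The genes of inhibitory cell contacts were dim or low. Pdcd1lg2 encodes PD-L2, a ligand of the T cell receptor PD-1 that interleukin 4 induces in mouse macrophages and dendritic cells. It was at 6.46, 6.25, 6.65 and 6.43 with rIL-33, against 6.13, 6.35, 6.48 and 6.44 with PBS (probe set 10462398), dim in both groups, with a difference of 0.10 (SE 0.11). Cd200r1 encodes the receptor by which myeloid cells receive a restraining signal from CD200 on other cells. Its log2 values (probe set 10435907) were 7.57, 7.40, 6.77 and 7.39 with rIL-33, against 7.19, 6.84, 6.78 and 7.08 with PBS. On 3 of 4 rIL-33 arrays it exceeded every PBS array, while rIL-33 replicate 3 was the lowest of all 8. The difference of 0.31 (SE 0.17, 95% interval -0.06 to 0.68) was 0.48 without that array.

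Egr2 is a zinc finger transcription factor that interleukin 4 induces through STAT6 in mouse macrophages. It was at 8.08, 8.39, 7.97 and 8.21 with rIL-33, against 8.41, 8.44, 8.12 and 8.07 with PBS (probe set 10363735), a difference of -0.10 (SE 0.12). Tgm2 encodes tissue transglutaminase, which cross-links proteins and marks alternatively activated macrophages in mouse and human, though endothelium and other cells make it too. It was at 9.34, 9.47, 9.40 and 9.45 with rIL-33, against 9.55, 9.52, 9.03 and 9.36 with PBS (probe set 10489204). The rIL-33 arrays lay within the PBS range, and the difference was 0.05 (SE 0.11).

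**Figure D2:**
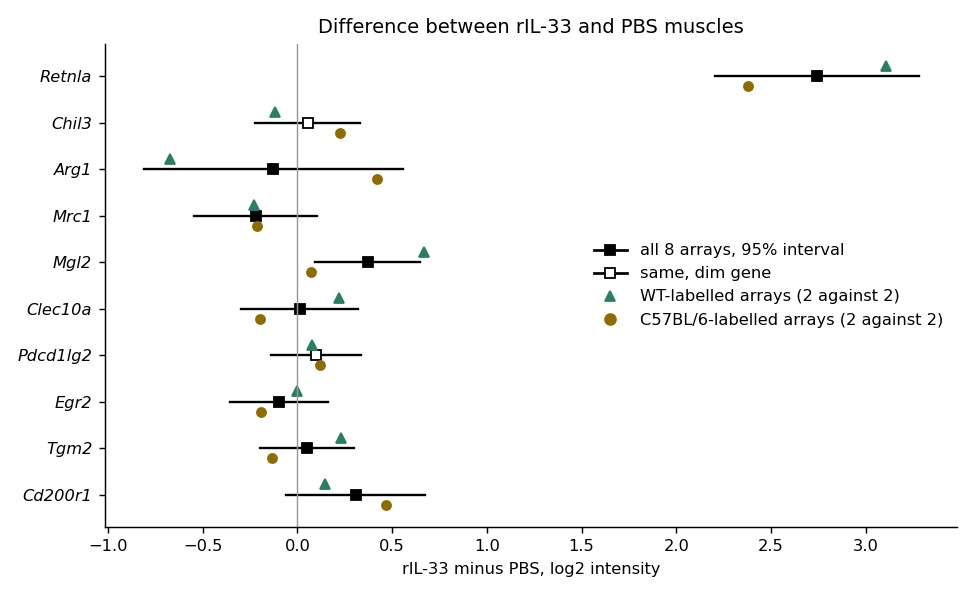
Difference between rIL-33 and PBS arrays in log2 intensity for each gene (squares with 95% intervals of the limma fit, 4 against 4 arrays, open where the gene was dim), with the difference among the WT-labelled arrays (triangles) and among the C57BL/6-labelled arrays (circles). Intervals of the dim genes came from the fit to all 19752 genes. Retnla lay between 2.38 and 3.11 in every version, and the intervals of 8 of the other 9 genes included 0, that of Mgl2 (0.09 to 0.65) being the exception.

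Over the 8 tested members, 5 were higher and 3 lower with rIL-33, with a median log2 difference of 0.03, against -0.01 over all tested genes. Without Retnla the 7 remaining members had a median of 0.01 and 4 were higher. Retnla and Mgl2 were the 2 members with an unadjusted p under 0.05 in limma, a level that 9.63% of all genes reached in this contrast, and nothing is read from this count either.

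**Figure D3:**
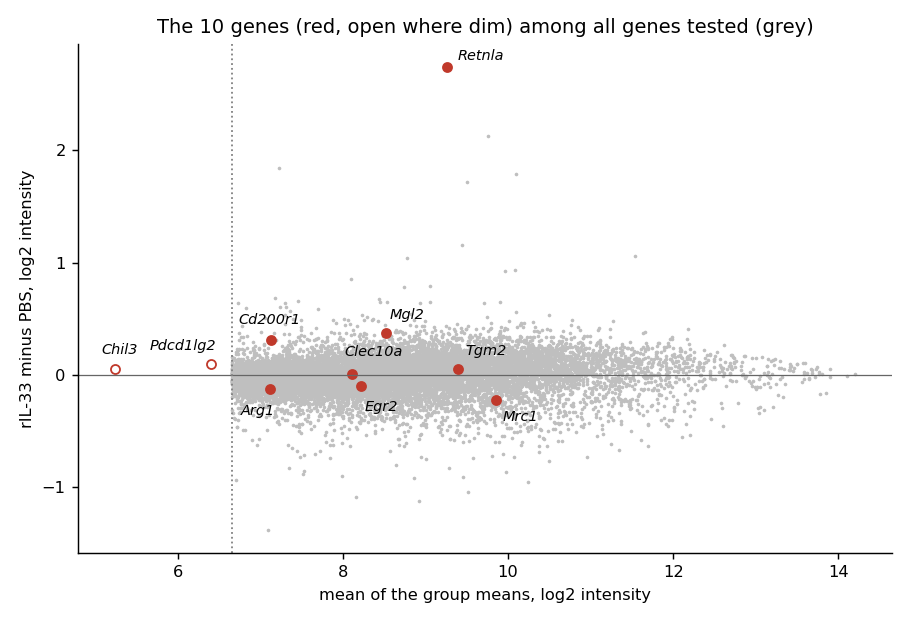
Difference between rIL-33 and PBS arrays in log2 intensity against the mean of both group means for the 14814 tested genes (grey) and the 10 genes described here (red, open for the 2 dim ones); the dotted line is the dim cut-off. Retnla, at 2.74, stood above every other tested gene, while Chil3, Arg1, Mrc1, Clec10a, Pdcd1lg2, Egr2 and Tgm2 lay between -0.22 and 0.10.

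The genetic background label crosses the treatment, with 2 arrays of each label in each group. The values of each array were in view when the genes were chosen, so their label differences are also a description and nothing is read from their counts. With treatment in the model, 1392 of 14814 genes (9.40%) differed between WT-labelled and C57BL/6-labelled arrays in limma, 473 higher and 919 lower on the WT-labelled arrays. Of the tested members, 0 of 8 were among them, with 1 of 8 at an unadjusted p under 0.05 in limma, against 4880 of 14814 genes. That one was Egr2, with a mean of 8.09 on WT-labelled and 8.33 on C57BL/6-labelled arrays, a difference of -0.24 (SE 0.09). Retnla averaged 9.16 on WT-labelled and 9.36 on C57BL/6-labelled arrays, a difference of -0.20 (SE 0.24). Arg1 had the widest label difference, 0.36 (SE 0.29), and it was -0.0045 without PBS replicate 4. Each single array moved the number of genes called by over 1.5 times: it was 10, 2509, 543 and 884 without rIL-33 replicates 1, 2, 3 and 4, and 52, 111, 21 and 12 without PBS replicates 1, 2, 3 and 4.

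Within the labels, the rIL-33 minus PBS difference of Retnla was 3.11 among WT-labelled and 2.38 among C57BL/6-labelled arrays, both large. Mgl2 differed by 0.67 among WT-labelled arrays and by 0.07 among C57BL/6-labelled ones, where its PBS values were higher. Arg1 differed by -0.67 among WT-labelled and 0.42 among C57BL/6-labelled arrays, and Tgm2 by 0.23 among WT-labelled and -0.13 among C57BL/6-labelled ones. The test of the treatment difference between labels called 0 of 8 members and 0 of 14814 genes in limma. At an unadjusted p under 0.05 it held 1 member, Mgl2, and 3.19% of all genes. The Mgl2 interaction was 0.60 (SE 0.14), and it lay between 0.52 and 0.68 whichever array was left out. Because the genes were chosen with the values of each array in view, these interaction values are also a description and nothing is read from them.

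Of 13 listed genes of interleukin 4 and interleukin 13 signalling, 11 had a value and 10 were tested, Il13ra2 being dim; Il2rg and Jak3 were not analysed here. In limma 0 passed the adjusted threshold, 4 were higher and 6 lower, the median was -0.07, and 1 was at an unadjusted p under 0.05. This was Il13ra1, the chain that pairs with the interleukin 4 receptor to bind interleukin 13, at 9.62 ± 0.28 with rIL-33 and 10.03 ± 0.32 with PBS (SD, n = 4 each; difference -0.42, SE 0.17, or -0.26 without PBS replicate 4). The interleukin 4 receptor alpha gene Il4ra was at 9.01, 9.47, 9.58 and 9.65 with rIL-33, against 9.54, 9.26, 9.68 and 10.50 with PBS, a difference of -0.32 (SE 0.24) that was -0.06 without PBS replicate 4. Il4ra and Il13ra1, like Arg1 and Mrc1, had their highest value on PBS replicate 4. Stat6 differed by -0.16 (SE 0.08) and the cytokine gene Il13 by -0.13 (SE 0.13).

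All 10 transcription factor and coactivator genes of alternative activation were tested, with 5 higher and 5 lower, a median of -0.0027, 0 past the adjusted threshold in limma and 1 at an unadjusted p under 0.05. Ppargc1b, the coactivator PGC-1β of oxidative metabolism in macrophages and in muscle fibres, was at 9.17, 9.22, 9.24 and 9.33 with rIL-33, against 8.97, 8.95, 9.04 and 9.07 with PBS. These groups did not overlap, as in 2.44% of all tested genes in that direction, and the difference was 0.23 (SE 0.07). Myc differed by -0.24 (SE 0.14), Irf4, a transcription factor of interleukin 4 responses, by 0.18 (SE 0.09), and the nuclear receptor gene Pparg by -0.14 (SE 0.09).

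Among 26 further genes of alternatively activated macrophages, 24 had a value and 21 were tested, 9 higher and 12 lower, with a median of -0.04. None passed the adjusted threshold in limma, and 2 higher and 4 lower genes were at an unadjusted p under 0.05. Mmp12, the macrophage elastase, was at 11.10, 11.20, 9.04 and 10.38 with rIL-33, against 9.96, 9.70, 9.37 and 8.98 with PBS. On 3 of the rIL-33 arrays Mmp12 exceeded all PBS arrays and on replicate 3 it fell among the lowest, and the difference was 0.93 (SE 0.42). The growth factor gene Igf1 differed by -0.48 (SE 0.17) and the scavenger receptor gene Stab1 by -0.45 (SE 0.15). Ccl17, a chemokine that attracts T helper 2 cells, differed by 0.31 (SE 0.15). The Ccl17 difference was 0.60 among WT-labelled arrays and 0.01 among the arrays of the other label. Ptgs1 was not analysed here, and Ym2, the protein name of Chil4, matched no symbol.

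Retnlb and Retnlg neighbour Retnla on chromosome 16 and both were dim, Retnlg at a mean of 6.07 with rIL-33 and 5.74 with PBS, and Retnlb at 5.06 with rIL-33 and 5.16 with PBS. Retn, the resistin gene itself and an adipocyte product in mice, was tested and stood at 8.52 ± 0.15 with rIL-33 and 8.42 ± 0.34 with PBS (SD, n = 4 each), a difference of 0.11 (SE 0.15). Of the 9 chitinase-like genes with a value, 5 were dim, Chil3 and its close relative Chil4 among them. The other 4 differed by little, led by Chil1 at -0.13 (SE 0.10), with 1 higher, 3 lower and a median of -0.02. In limma 0 of these 4 passed the adjusted threshold and 0 were at an unadjusted p under 0.05.

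Arginine metabolism showed no common direction, with 4 of 8 tested genes higher and 4 lower, a median of -0.01 and 0 past the adjusted threshold in limma (1 at an unadjusted p under 0.05). Slc7a2, a transporter that brings arginine into macrophages and muscle, was at 9.83, 9.63, 9.83 and 9.69 with rIL-33, against 9.58, 9.46, 9.40 and 9.36 with PBS. Its groups did not overlap and its difference was 0.29 (SE 0.08). Nos2, the inducible nitric oxide synthase that competes with arginase, differed by -0.21 (SE 0.12) and the transporter gene Slc7a1 by -0.18 (SE 0.10). Odc1, which turns ornithine into polyamine, differed by 0.15 (SE 0.14). Without PBS replicate 4 the Nos2 difference was -0.09, and without PBS replicate 3 that of Odc1 was 0.02. Arg2 and Otc were dim, and Ass1 was not analysed here.

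The partners of PD-L2 and CD200R moved in both directions, 4 of 7 tested genes higher and 3 lower with a median of 0.04, and 0 passed the adjusted threshold in limma (1 higher and 1 lower at an unadjusted p under 0.05). Cd274, which encodes the other PD-1 ligand PD-L1 and neighbours Pdcd1lg2 on chromosome 19, was at 8.62, 8.48, 10.88 and 9.19 with rIL-33, against 8.18, 8.29, 8.06 and 8.48 with PBS. Its value on rIL-33 replicate 3 was far above those on the other arrays, and the difference of 1.04 (SE 0.43) was 0.51 without that array. That array was also the lowest of the rIL-33 arrays for Cd200r1 and Mmp12. The costimulatory ligand genes Cd86 and Cd80 differed by -0.42 (SE 0.13) and -0.34 (SE 0.17), and Pdcd1, the PD-1 gene, by -0.24 (SE 0.14). Without PBS replicate 4 the Cd80 difference was -0.19, and without PBS replicate 1 that of Pdcd1 was -0.12.

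All 6 genes of the EGR family and its NAB corepressors were lower with rIL-33, by a median of -0.11, with 0 past the adjusted threshold in limma and 1 at an unadjusted p under 0.05. Egr1 differed by -0.44 (SE 0.21), Nab2 by -0.27 (SE 0.11), Nab1 by -0.13 (SE 0.09) and Egr3 by -0.09 (SE 0.08). Of the 4 transglutaminase genes, 2 were higher and 2 lower, with a median of -0.04 and 0 at an unadjusted p under 0.05 in limma. F13a1, the clotting factor XIII subunit made by tissue macrophages, differed by -0.17 (SE 0.15), Tgm1 by -0.11 (SE 0.13) and Tgm3 by 0.03 (SE 0.12).

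**Figure D4:**
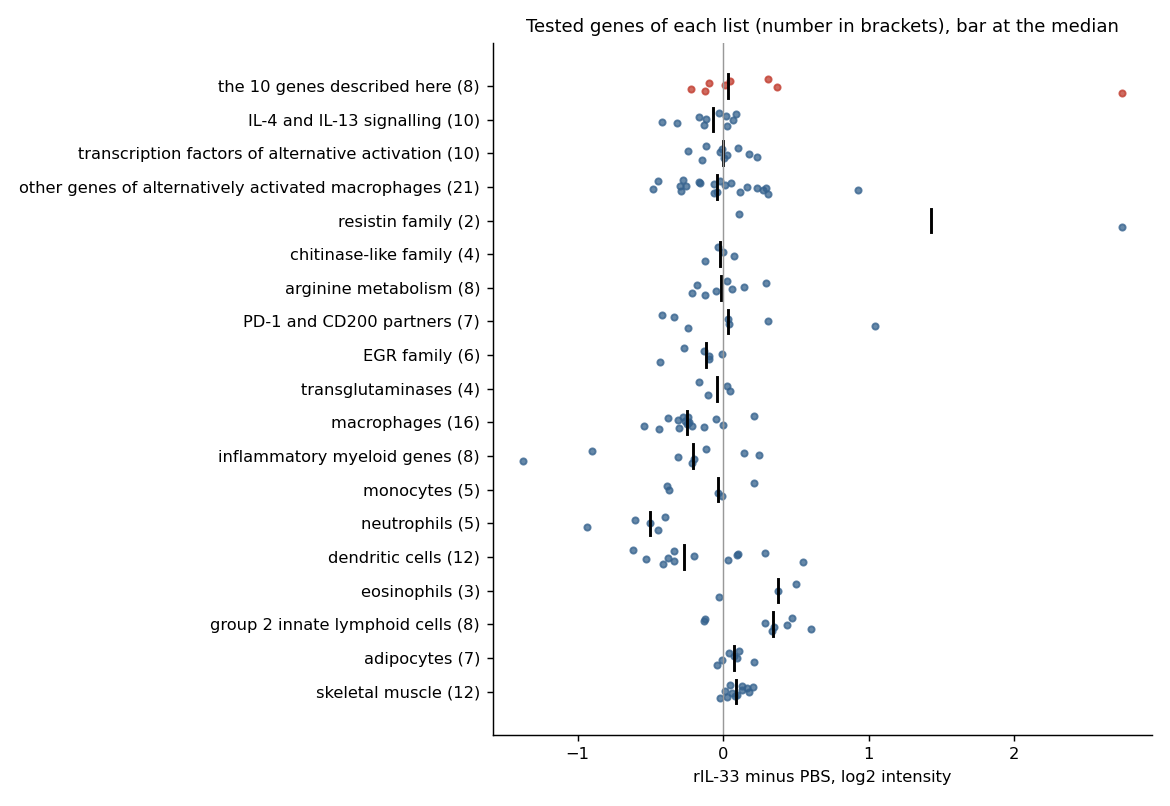
Difference between rIL-33 and PBS arrays in log2 intensity for every tested gene of the 10 genes described here (red) and of 9 pathway and family lists and 9 of the cell type lists (blue), with the number of tested genes in brackets and a bar at each median. The Retnla point at 2.74 appears in the first row and again in the resistin family, and the medians of the lists of signalling and transcription factor genes lie at -0.07 and -0.0027.

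Genes of all macrophages were mostly lower where Retnla was higher. Of 16 tested macrophage genes 2 were higher and 14 lower, with a median of -0.25, and 0 passed the adjusted threshold in limma (1 higher and 6 lower at an unadjusted p under 0.05). Their mean log2 level was 9.61 to 10.003 on the rIL-33 arrays and 9.84 to 10.19 on the PBS arrays. The receptor gene Fcgr1 differed by -0.55 (SE 0.17), without overlap between the groups, as in 2.13% of all tested genes in that direction, and Adgre1, which encodes F4/80, by -0.44 (SE 0.15). Of 5 tested monocyte genes 1 was higher, with list levels of 8.44 to 8.77 with rIL-33 and 8.44 to 8.98 with PBS, and Cx3cr1 (-0.38, SE 0.07, no overlap) and Fcgr4 (-0.38, SE 0.18) differed most. Of 8 inflammatory myeloid genes 2 were higher and 6 lower, at 7.35 to 8.04 with rIL-33 and 7.91 to 8.64 with PBS, led by Il1b (-1.38, SE 0.54) and Ptgs2 (-0.90, SE 0.25), both without overlap. Without PBS replicate 4 the Il1b difference was -0.68. In these 2 lists 0 genes passed the adjusted threshold in limma, and 1 monocyte and 3 inflammatory genes, all lower, were at an unadjusted p under 0.05.

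Other cells that can make Retnla, Mgl2, Arg1 or Chil3 were followed by their own markers. For eosinophils, 3 of 10 listed genes were tested, 2 higher and 1 lower; Alox15 differed by 0.50 (SE 0.16) and Ccr3 by 0.38 (SE 0.09), both without overlap between the groups, and Siglecf by -0.03 (SE 0.14), while the granule genes Epx, Prg2 and Prg3 were dim, as were Il5ra and Ear6. The tested eosinophil genes had a mean level of 7.21 to 7.62 with rIL-33 and 6.91 to 7.28 with PBS. Adipocyte genes were higher in 5 of 7, at 8.21 to 8.45 with rIL-33 and 8.10 to 8.36 with PBS, with Plin1 at 0.22 (SE 0.10) and Retn at 0.11. Dendritic cell genes were higher in 5 and lower in 7 of 12, at 8.11 to 8.25 with rIL-33 and 8.23 to 8.38 with PBS, with Clec4n at -0.62 (SE 0.16) and Itgax at 0.55 (SE 0.22).

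Neutrophil genes were lower in all 5 tested, with a mean level of 7.03 to 7.38 on the rIL-33 arrays and 6.90, 6.98, 8.09 and 8.99 on PBS replicates 1 to 4, and S100a8, Camp, Ltf, Mmp8 and Cxcr2 were dim by their mean. Ngp (-0.94, SE 0.62) and Csf3r (-0.60, SE 0.29, no overlap) led them. The Ngp difference was -2.11 among WT-labelled and 0.24 among C57BL/6-labelled arrays, and -0.33 without PBS replicate 3; that of Csf3r was -0.24 without PBS replicate 4. S100a9 differed by -1.35 among WT-labelled and 0.45 among C57BL/6-labelled arrays, and Lcn2 by -1.09 among WT-labelled and 0.09 among C57BL/6-labelled ones. Genes of group 2 innate lymphoid cells, a source of interleukin 13 after interleukin 33, were higher in 6 of 8. Their mean level was 8.14 to 8.22 with rIL-33 and 7.81 to 8.00 with PBS. Klrg1 (0.60, SE 0.11) and Zbtb16 (0.47, SE 0.10) led them, both without overlap. That list also holds Arg1 and Il13, both of them lower. Zbtb16 was much brighter than Klrg1, at a mean of 10.54 with rIL-33 and 10.07 with PBS, against 7.12 and 6.52 for Klrg1. Which cells gave the Zbtb16 signal was not tested. None of the genes in these 5 lists passed the adjusted threshold in limma, and at an unadjusted p under 0.05 there were 2 higher eosinophil genes, 5 higher innate lymphoid genes, 2 higher and 6 lower dendritic cell genes and 0 adipocyte or neutrophil genes. The part of these cells in the level of Retnla was not tested.

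Mast cell genes were lower in 4 of 5 (Cpa3 -0.38, SE 0.25, and Mcpt4 -0.33, SE 0.22), and T cell genes in 6 of 6 (Cd3g -0.88, SE 0.46, and Cd8a -0.42, SE 0.22). The Cpa3 difference was -0.76 among C57BL/6-labelled and -0.0020 among WT-labelled arrays. That of Mcpt4 was -0.61 among C57BL/6-labelled and -0.05 among WT-labelled ones. Fibroblast and progenitor genes were lower in 8 of 8 (Lum -0.76, SE 0.15, and Dpt -0.61, SE 0.15, both without overlap), at mean levels of 10.60 to 10.94 with rIL-33 and 11.08 to 11.36 with PBS. Endothelial genes were lower in 5 of 8 (Emcn -0.32, SE 0.08, without overlap, and Cdh5 -0.23, SE 0.10), and skeletal muscle genes higher in 11 of 12 (Mylpf 0.20, SE 0.18, and Myh2 0.17, SE 0.15). The Myh2 difference was 0.48 among C57BL/6-labelled and -0.13 among WT-labelled arrays, and that of Mylpf was 0.07 without PBS replicate 4. In these 5 lists 0 genes passed the adjusted threshold in limma, and 1 T cell, 7 fibroblast and 2 endothelial genes that were lower, with 1 endothelial gene that was higher, were at an unadjusted p under 0.05.

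The genes whose log2 profile over the 8 arrays was most like that of Retnla, by Pearson's r as a measure of likeness with no test, were Rprd1a (0.976), Dtna (0.971), Klrg1 (0.962), Lmbrd2 (0.962) and C1d (0.949). Their treatment differences were 0.31, 0.26, 0.60, 0.25 and 0.30 in that order, all well under that of Retnla. These values share the treatment contrast and the arrays. The closest member was Mgl2, with r = 0.764 in place 727, followed by Cd200r1 (0.486), and Mrc1 was the farthest (-0.549). After the 4 treatment-by-label means had been taken off, the most similar genes were Ppif (0.999), Sugt1 (0.998), Metap2 (0.995), Ssx2ip (0.994) and Ryk (0.991), and all 7 other tested members had a negative value, between -0.595 and -0.111. In that second measure the deviations of 2 arrays in a cell mirror each other, so it rests on 4 differences.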

How the data were processed

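The values are the authors' deposited intensities of probe sets, on a linear scale, made with RMA and Affymetrix Power Tools according to the submitters' processing notes; for both, version and settings are not given in the sources used here. As a method, RMA subtracts background, normalizes between arrays and sums up the probes of a set, and folds of dim genes are compressed. Log2 was taken. The table held 24922 probe sets, of which 21425 had 1 gene symbol in the platform annotation, 1399 several and 2098 none. Per gene, the one-symbol probe set of highest mean over 8 arrays was kept (19752 genes). Genes in the lowest 25% by mean (log2 intensity under 6.65) were left out as dim, leaving 14814.

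Contrasts were fitted to all these genes with limma 3.58.1 (lmFit, eBayes) in R 4.3.3 and p-values adjusted by the Benjamini-Hochberg method over all of them, at a threshold of 0.05. The fits were rIL-33 minus PBS with no block, WT-labelled minus C57BL/6-labelled with treatment in the model, and their interaction. For dim genes, differences, SE and intervals came from the same fits made to all 19752 genes, with no adjusted p. The script was tested on simulated data. Alternatives were quantile normalization, other dim filters, eBayes with trend and robust, averaging all probe sets per gene, blocks, each label alone, and each array left out. The 10 genes and the 22 gene lists were chosen with earlier results of these data known. Named genes are the 10, the tested genes of largest absolute difference in each list (up to 4 for pathway and family lists, 2 for cell type lists), the 5 most like Retnla by each of 2 measures, and, chosen after their values were seen, a few dim genes, S100a9, Lcn2 and Siglecf. Arrays have no read depth, and their number limits the precision. Promoter sequences came from RefSeq (GRCm38.p6). Figures were drawn with matplotlib 3.10.9.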

Additional observations from a re-analysis of the deposited data

Results flagged for a closer look

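In groups of 4 arrays, a single array stood apart in 3 of 134 groups checked (67 named genes, 2 groups each), by the gap to the nearest array as a share of the group's range (Dixon's 95% critical value), which chance alone passes in about 1 in 20 groups. Arg1 on rIL-33 replicate 2 stood apart by 0.885 of the range, at 7.38 against 6.91 to 6.96 on the other rIL-33 arrays. Il1b stood apart on PBS replicate 4 by 0.985 of the range, at 9.86 against 7.06 to 7.11 on the other PBS arrays. Csf3r stood apart on the same array by 0.924 of the range, at 9.38 against 7.86 to 7.98 on the other PBS arrays.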

How the results depend on the processing

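Retnla had a log2 difference between 2.38 and 3.11 under all 17 alternatives, and 2.61 to 2.97 with 1 array left out. The 1 gene called with rIL-33 became 0 with the replicate block, 2 on the C57BL/6-labelled arrays alone, where Retnla was not called, 4 on the WT-labelled arrays alone, and 1 to 2 with 1 array left out (2 without rIL-33 replicate 4). Same-numbered arrays share the background label, and the block by that label alone kept the count at 1. Their deviations correlated at 0.440, -0.186, 0.426 and 0.542 for numbers 1 to 4, not positive in every pair, so they were not taken as pairs, and rIL-33 replicate 1 correlated best with PBS replicate 2 (0.627). The 1392 genes called between labels became 415 with quantile normalization, 892 with the stricter dim filter, and 10 to 2509 with 1 array left out, and the 0 called in the interaction became 0 to 8 (8 without rIL-33 replicate 4). With 1 array left out, the label difference of Retnla ran from -0.47 to 0.026, that of Arg1 from -0.0045 to 0.57, and the Mrc1 interaction from -0.35 to 0.32, and their cause was not tested. In the treatment contrast, the difference changed sign under 2 alternatives for Chil3, 2 for Arg1, 4 for Clec10a and 2 for Tgm2, and under none for the other 6 genes. Of the 57 leading genes of the lists, 33 moved by over 1.5 times or turned in sign without 1 array, a comparison added after the data were seen. Leaving out an array leaves some label cells with 1 array, which is assumed to vary like the others.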
